A study of Mus musculus with 12 samples.

Results

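Replication-dependent histone genes are the clustered genes that supply new chromatin with the linker histone H1 and the core histones H2A, H2B, H3 and H4. Genes were included when their symbol began with Hist1h, Hist2h, Hist3h or Hist4h, the older mouse names for these clusters, and did not end in -ps. The rule gave 69 genes, with 6 for H1, 20 for H2A, 18 for H2B, 12 for H3 and 13 for H4, and 67 of them stood in both deposited count tables among the 54855 symbols those tables shared. The naming differed between the tables: the table for cells with apoptotic cells used newer symbols (H1f2 for Hist1h1c, H2bc4 for Hist1h2bc) for 60 of the members, and these were matched 1 to 1 through the synonyms in RefSeq. By deposited symbol alone, 67 members stood in the table without apoptotic cells, 9 in the table with them and 7 in both.

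RNA sequencing of primary mouse macrophages, grown from tibial bone marrow and labelled with a time of 6 to 8 weeks, compared wild type cells (WT) with cells labelled as lacking Kif13b (KO), which encodes a kinesin motor protein. In both genotypes, 1 set of macrophages was kept alone and another was given dying Jurkat cells (AC), which come from a human leukaemia of T cells, at 5 apoptotic cells per macrophage for 90 min. There were 4 groups of 3 libraries, and the labels describe the sequenced molecule as polyA RNA. The series title concerns MERTK-mediated engulfment of dying cells in atherosclerosis. The labels give the altered genotype as Kif13b-/- in one place and as a knock down in another. They also list serum at 10, 10 and 11% for the WT libraries and at 12, 13 and 14% for the KO libraries without AC, so serum as labelled and genotype cannot be told apart there. Nothing in the labels ties the 3 libraries of a group to different mice or cultures, and the p-values below cover no more than the spread among the libraries, which may be technical.

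Most replication-dependent histone mRNAs are not polyadenylated. They end a few bases after a short hairpin, the histone stem-loop, which is bound by the stem-loop binding protein SLBP, and cutting there needs the U7 small nuclear ribonucleoprotein with LSM10 and LSM11. Their level rises in S phase, when DNA is copied, and falls quickly once replication stops; some of these genes also give polyadenylated mRNAs from a site farther downstream, which non-dividing cells can make. A library that selects RNA by its poly(A) tail leaves out most of the stem-loop form.

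The annotated 3′ ends of the members were read from the GENCODE vM21 transcripts (GRCm38) to show which members have an annotated transcript that goes on past the stem-loop; which form was captured was not tested. A script looked in the 150 bases after each stop codon for a hairpin of 16 letters: a stem of 6 pairs that begins with GG and has T next to the loop, and a loop of any 4 bases. It found them in 46 of the 69 members and in 0.061% of 47736 other coding transcripts. Of these 46 members, 18 had a transcript model that ran more than 200 bases past the stem-loop and 28 ended sooner. In 4 members no hairpin stood in the window although the model ran more than 200 bases past the stop codon, and in 19 the model was short and held none. The stem-loops of the member of highest count among H1, H2A, H3 and H4 are shown on their own strand, with the hairpin in capitals and 5 flanking bases on each side, since each of these models continues past the hairpin.
Hist1h1c: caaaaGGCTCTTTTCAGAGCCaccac
Hist3h2a: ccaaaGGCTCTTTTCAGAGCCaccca
Hist2h3c2: acaaaGGCTCTTTTCAGAGCCaccac
Hist1h4i: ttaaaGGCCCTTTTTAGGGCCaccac
In GRCm38 the capitals stand at chr13:23739512-23739527 (plus strand) for Hist1h1c, chr11:58955172-58955187 (plus) for Hist3h2a, chr3:96238485-96238500 (minus) for Hist2h3c2 and chr13:22040966-22040981 (minus) for Hist1h4i. The stem-loop began 24 bases after the stop codon of Hist1h1c, whose model went on for 840 bases after it. The distances were 41 and 1643 bases for Hist3h2a, 30 and 377 for Hist2h3c2, and 30 and 330 for Hist1h4i. The H2B gene of highest count, Hist1h2bc, had no such hairpin after the stop codon of its transcript model. Its exon ended 9 bases after the stop, and an intron of 7554 bases joined it to a second exon (exons at chr13:23684199-23684621 and chr13:23692176-23692908, plus strand). The intron is not part of the transcript and was not searched. Hist2h2be (chr3:96221119-96223738, plus strand) had no match either and a model with 2192 bases after the stop codon.

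Total counts were 18256622 to 18770757 per library without AC and 17000976 to 17285594 with AC. Libraries without AC had counts for 18335 to 18540 symbols and libraries with AC for 31787 to 32801. Each condition has a table of its own, so the effect of AC cannot be told apart from a difference in how the libraries or tables were made. Within a group, a chi-square per degree of freedom over genes was 4.96 to 35.5 without AC and 1.40 to 1.93 with AC, where 1 is sampling noise. The library labelled KO 3 lay closer to WT 1 (8.42) than to KO 1 (22.7) or KO 2 (35.5). Kif13b had 281, 345 and 424 counts in the KO and 599, 546 and 535 in the WT libraries without AC, a log2 difference of -0.59 (edgeR quasi-likelihood test, adjusted p = 0.00870). With AC it had 1697, 1697 and 1721 counts in the KO and 1600, 1561 and 1634 in the WT libraries (log2 0.13, adjusted p = 0.0261), so with AC the libraries labelled KO were not lower in Kif13b. All 10 macrophage markers had counts in each group, with a summed level of 33875 to 41093 counts per 1000000 scaled counts (CPM) in the libraries without AC and 16356 to 20171 CPM with AC.

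The members held little of the RNA, and a few of them held most of what there was. Their summed level was 281 ± 24.1 CPM in WT, 335 ± 36.9 in KO, 67.8 ± 8.66 in WT + AC and 62.7 ± 9.35 in KO + AC (mean ± SD, n = 3, scaled over the 12 libraries). Hist1h1c, a linker histone gene, and Hist1h2bc, an H2B gene, made up 87.4 to 90.5% of the members' counts in the libraries without AC and 72.7 to 81.4% with AC. Together with Hist2h2be (H2B), Hist1h4i (H4) and Hist3h2a (H2A) they made up 96.4 to 97.0% and 85.7 to 91.1%. At the other end, 23 of 67 members had no count in any WT library, 15 in KO, 16 in WT + AC and 18 in KO + AC. Some of these have near-identical copies. Among members at 0 throughout, the share of 100-base windows found in other annotated transcripts ran from 0% (Hist1h2aa) to 100% (Hist2h2aa2 and Hist2h3c1). How shared reads were counted is not given in the sources used here, so a 0 in such a gene is uncertain. A mean of 100 or more counts was reached by 4 members in each group without AC and by 3 in each group with AC. Fewer cells of a type and less RNA per cell cannot be told apart in bulk samples.

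**Figure D1:**
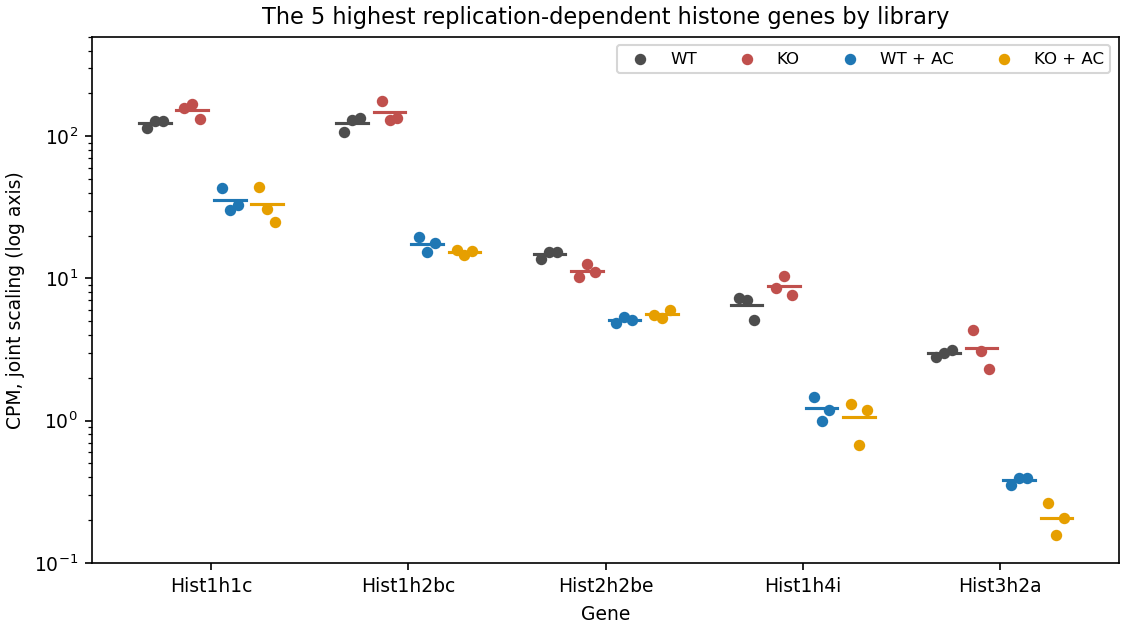
Level of the 5 members with the most counts in each of the 12 libraries, in CPM on a log axis with 1 scaling over all libraries; points are libraries and short lines are group means. For each of the 5 genes the 6 libraries with AC lie below the 6 without, from 24.9 to 43.8 against 115 to 169 CPM for Hist1h1c.

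Levels were compared between genes per kb of annotated exon. Hist1h2bc was highest at 107 ± 12.9 CPM per kb in WT and 127 ± 22.4 in KO, and Hist1h1c followed at 79.2 ± 5.05 and 98.3 ± 12.1 CPM per kb. With AC the order of these means was the other way, at 15.2 ± 1.79 and 13.3 ± 0.521 CPM per kb for Hist1h2bc and 22.7 ± 4.49 and 21.3 ± 6.20 for Hist1h1c in WT + AC and KO + AC. Without AC the next was Hist1h4i, with 8.92 ± 1.62 in WT, 12.2 ± 1.97 in KO, 1.67 ± 0.330 in WT + AC and 1.46 ± 0.464 in KO + AC. Hist2h2be had 5.64 ± 0.334, 4.32 ± 0.480, 1.95 ± 0.0932 and 2.14 ± 0.147 CPM per kb, below Hist1h4i without AC and above it in the means with AC. Every other member stayed below 2 CPM per kb in each group mean. The fifth, Hist1h2bg (H2B), had 1.58 ± 0.365, 1.71 ± 0.0660, 0.916 ± 0.123 and 0.954 ± 0.212 CPM per kb.

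**Figure D2:**
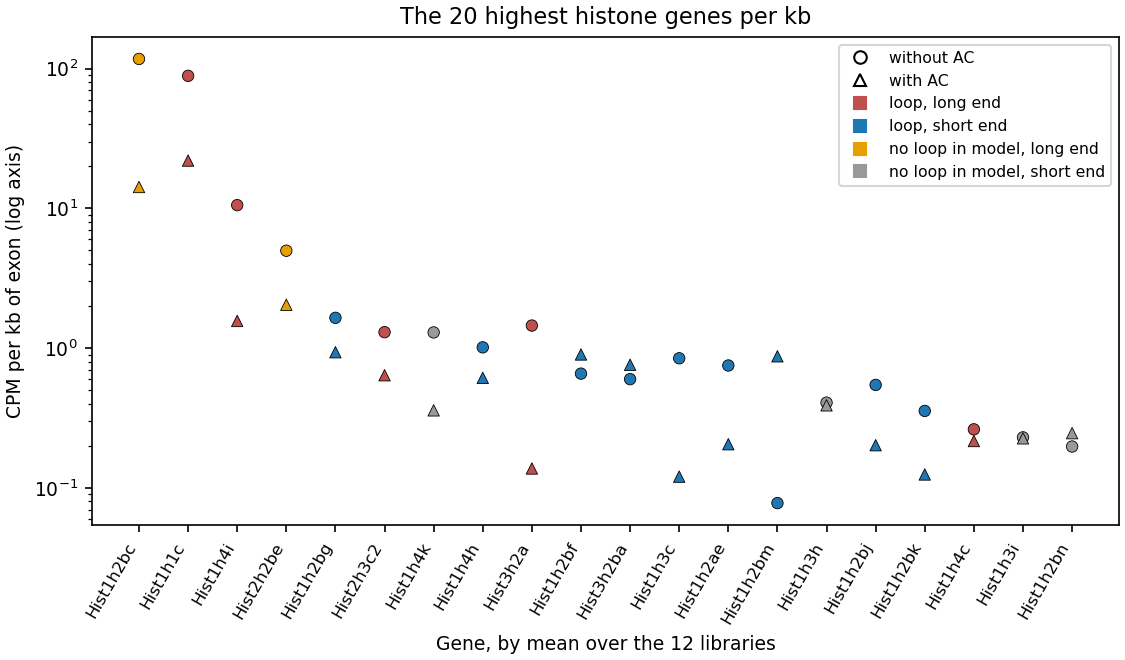
The 20 members highest per kb of exon over the 12 libraries, with the mean of WT and KO as circles and of WT + AC and KO + AC as triangles, on a log axis; colours give the annotated 3′ end. The 4 genes at the left all have models with long ends and stand above the rest without AC.

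The members with long annotated ends held nearly all of the level, and most of it came from Hist1h1c and Hist1h2bc. In WT these had 124 ± 7.89 and 124 ± 14.9 CPM, so the sums below say little about the other members with long ends. The 18 genes with a stem-loop and a long end summed to 137 ± 7.66 CPM in WT, 170 ± 21.2 in KO, 41.0 ± 7.18 in WT + AC and 38.1 ± 9.38 in KO + AC. Hist1h2bc and Hist2h2be, the pair with a long end and no stem-loop match that stood in both tables, summed to 139 ± 15.7, 158 ± 24.8, 22.6 ± 1.83 and 21.0 ± 0.894 CPM. The 28 genes whose models stop within 200 bases of the stem-loop summed to 4.17 ± 1.08, 4.90 ± 0.774, 3.46 ± 0.567 and 3.02 ± 0.405 CPM. This class is mixed, with 3 bases after the stem-loop in Hist1h2ap and 155 in Hist1h2bg, which had 0.976 ± 0.226 CPM in WT. The 19 short models with no match summed to 0.850 ± 0.308, 1.23 ± 0.692, 0.699 ± 0.0811 and 0.676 ± 0.0488 CPM. In the class of 28 genes the libraries with and without AC overlapped in WT and did not in KO, where those with AC were lower. In the class of 19 they overlapped in both genotypes. The split of the members without a match by length was chosen after the values were seen.

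**Figure D3:**
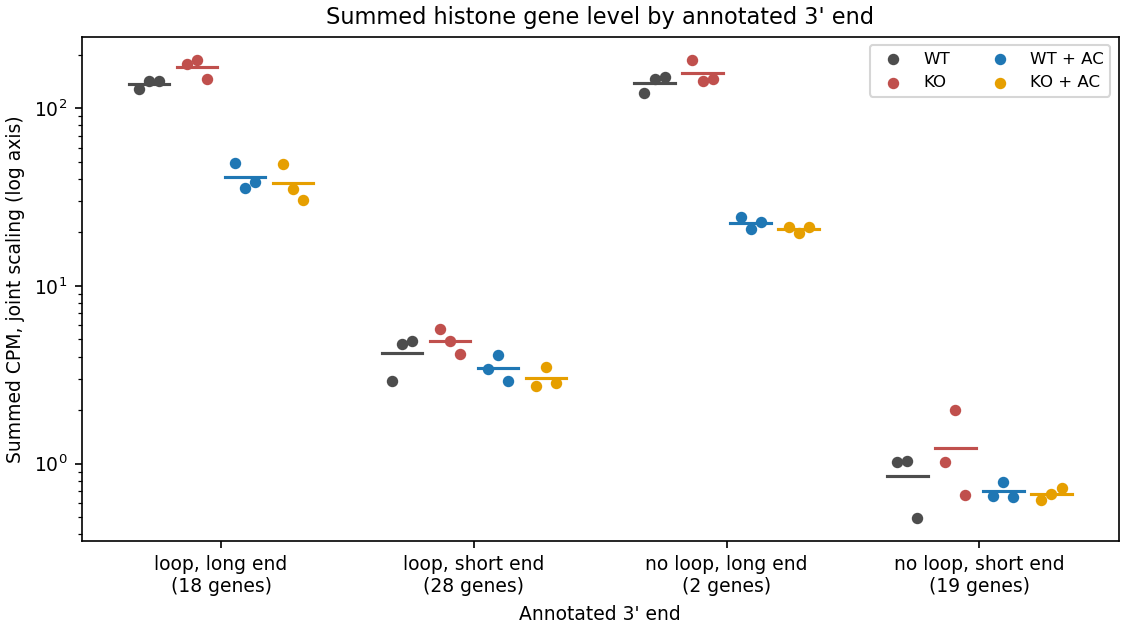
Summed level of the members of each class of annotated 3′ end, in CPM on a log axis; points are libraries and short lines are group means of 3 libraries. In both classes with long ends every library with AC lies below every library without, and Hist1h1c or Hist1h2bc holds most of the sum. The class with a stem-loop and a short end spans 2.72 to 5.69 CPM over all 12 libraries. Its libraries with and without AC overlap in WT and not in KO.

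Some neighbouring members on opposite strands differed widely. Among the members, 13 pairs of an H2A and an H2B gene start within 500 bases of each other and are transcribed away from a shared stretch. The pairs with Hist1h2bc and Hist2h2be had the most counts and are given below. In the other pairs no gene had more than 49 counts over the 3 libraries of a group. The highest of these, Hist1h2ae and Hist1h2bg, had 25 against 48 in WT. Hist1h2ac and Hist1h2bc lie 250 bases apart. Summed over 3 libraries, Hist1h2ac had 14 counts against 6110 for Hist1h2bc in WT, 14 against 6760 in KO, 9 against 1052 in WT + AC and 5 against 886 in KO + AC. Hist2h2ac and Hist2h2be lie 238 bases apart, and their counts were 0 against 727 in WT, 0 against 522 in KO, 0 against 307 in WT + AC and 1 against 323 in KO + AC. A count of 0 allows up to 3 counts, and Hist2h2ac was not detectable at this depth in WT. The stretch between Hist1h2ac and Hist1h2bc is printed because genes that share it differ so much in count. It is 239 bases at chr13:23683960-23684198, read on the minus strand, from the RefSeq promoter of Hist1h2ac in GRCm38.p6, whose start differs from that in GENCODE, and the capitals mark matches on either strand to the octamer ATTTGCAT (1 match), to CCAAT (3) and to TATAAA (1).
Hist1h2ac-Hist1h2bc: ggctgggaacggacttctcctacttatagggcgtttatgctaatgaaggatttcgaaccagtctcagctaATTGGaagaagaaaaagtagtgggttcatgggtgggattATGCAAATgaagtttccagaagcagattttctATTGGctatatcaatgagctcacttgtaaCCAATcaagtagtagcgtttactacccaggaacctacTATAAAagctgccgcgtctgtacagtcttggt
In windows from 250 bases before to 50 after the start, searched on both strands, the octamer was found at 7 of 17 H2A and 7 of 16 H2B genes with a RefSeq entry, against 1.969% of 27025 genes. None of the 6 H1, 10 H3 or 12 H4 windows held it. CCAAT, which is common (41.058% of all genes), was in all H1, H2A, H2B and H3 windows and in 3 of 12 H4 windows. TATAAA was in 4 of 6 H1, 11 of 17 H2A, 8 of 16 H2B, 4 of 10 H3 and 8 of 12 H4 windows, against 15.667% of all genes. A match describes the letters only.

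Without AC, no member passed the test between KO and WT. The fit tested 8 of the 67 members, those that passed the filter on low counts, and called 0 of 8 at an adjusted p under 0.05, where 16.2% of 12640 genes were called, 7.94% as higher in KO and 8.24% as lower. At an unadjusted p under 0.05 there were 3 (Hist1h1c, Hist1h4i and Hist2h2be), and DESeq2 also called 0. These 3 had groups that did not overlap, as did 33.6% of all genes tested. The members' log2 differences were positive for 7 of 8, with a median of 0.18 against 0.02 over all genes. With offsets for transcript length and GC content Hist1h2bg and Hist2h3c2 turned negative (-0.23 and -0.37), neither called.

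Hist1h1c, the linker histone gene with the most counts, had 2347, 2528 and 2175 counts in the KO and 1914, 2094 and 2076 in the WT libraries without AC. The KO libraries were above the WT libraries by a small margin, with 132 ± 16.9 against 107 ± 7.07 CPM scaled within these 6 libraries. The log2 difference was 0.31 ± 0.13 (SE, edgeR, adjusted p = 0.0834). Of the core histones, Hist1h2bc had 2609, 1940 and 2211 counts in KO and 1793, 2135 and 2182 in WT, and these overlapped (log2 0.24 ± 0.14, edgeR adjusted p = 0.211). Hist2h2be, the other abundant H2B gene, lay the other way, with 151, 190 and 181 counts in KO and 230, 251 and 246 in WT. No KO library reached a WT library, and the log2 difference was -0.38 ± 0.15 (edgeR adjusted p = 0.0757). Hist1h4i, an H4 gene, had 126, 156 and 125 counts in KO and 122, 115 and 83 in WT, which gave a log2 difference of 0.45 ± 0.18 (edgeR adjusted p = 0.0797). Its groups stood apart by 3 counts. The other 4 tested members, Hist1h2be, Hist1h2bg, Hist2h3c2 and Hist3h2a, had log2 differences of 0.02 to 0.27 with overlapping groups and adjusted p of 0.601 to 0.973.

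The number of calls depended on KO 3, over all genes as well. Without that library edgeR called 3 of 8 members. It called 4166 of 12868 genes, against 2045 of 12640 with KO 3 included. The log2 differences were 0.37 for Hist1h1c (edgeR adjusted p = 0.0141), 0.51 for Hist1h4i (0.0424) and -0.40 for Hist2h2be (0.0471). Without KO 1 and KO 2, a check added after the data were seen, only KO 3 is left, so its calls are not given. In the joint fit of 12 libraries, Hist2h2be (-0.38, edgeR adjusted p = 0.0162) and Hist1h4i (0.44, 0.0470) were called. That fit called 4017 of 16907 genes, and its estimate of the spread is shared with the libraries with AC. Offsets for transcript length and GC content brought the Hist1h1c difference to 0.01. Across genes, the deviation of a library correlated with transcript length at -0.53 in KO 1, -0.30 in KO 2 and 0.32 in KO 3, against 0.20 to 0.37 in the WT libraries, and the part of length in the other differences was not tested. On simulated counts for this comparison the fit found 43.3% of genes changed 1.5-fold and 82.1% of genes changed 2-fold, so differences of the size seen here were not reliably detectable.

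With AC, the members again did not pass the test between KO and WT. Of 69 members 8 were tested and 0 were called, where 11.3% of 16467 genes were called, 6.58% as higher in KO and 4.75% as lower; 1 had an unadjusted p under 0.05, and DESeq2 called 0. Hist1h2bc had 303, 283 and 300 counts in KO + AC and 386, 311 and 355 in WT + AC. The KO libraries were all lower in raw count, but the groups overlapped after scaling, at 17.5 ± 0.644 against 20.3 ± 2.43 CPM (log2 -0.21 ± 0.08, edgeR adjusted p = 0.0688). It was called without WT + AC 2 (log2 -0.30, edgeR adjusted p = 0.0101), where 1343 of 16817 genes were called. Hist1h1c had 838, 596 and 481 counts in KO + AC and 856, 609 and 656 in WT + AC, a spread within each group far wider than the difference between them (log2 -0.11 ± 0.28, edgeR adjusted p = 0.875). Hist2h2be had 106, 101 and 116 counts against 96, 108 and 103 (log2 0.11 ± 0.12, edgeR adjusted p = 0.667), and Hist1h4i had 25, 13 and 23 against 29, 20 and 24 (log2 -0.22 ± 0.27, edgeR adjusted p = 0.687). The remaining 4, Hist1h1d, Hist1h2bg, Hist2h3c2 and Hist4h4, had log2 differences of -0.16 to 0.22 and adjusted p of 0.772 to 0.970. No tested member had groups that stood apart in this table, where 26.4% of all genes did.

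**Figure D4:**
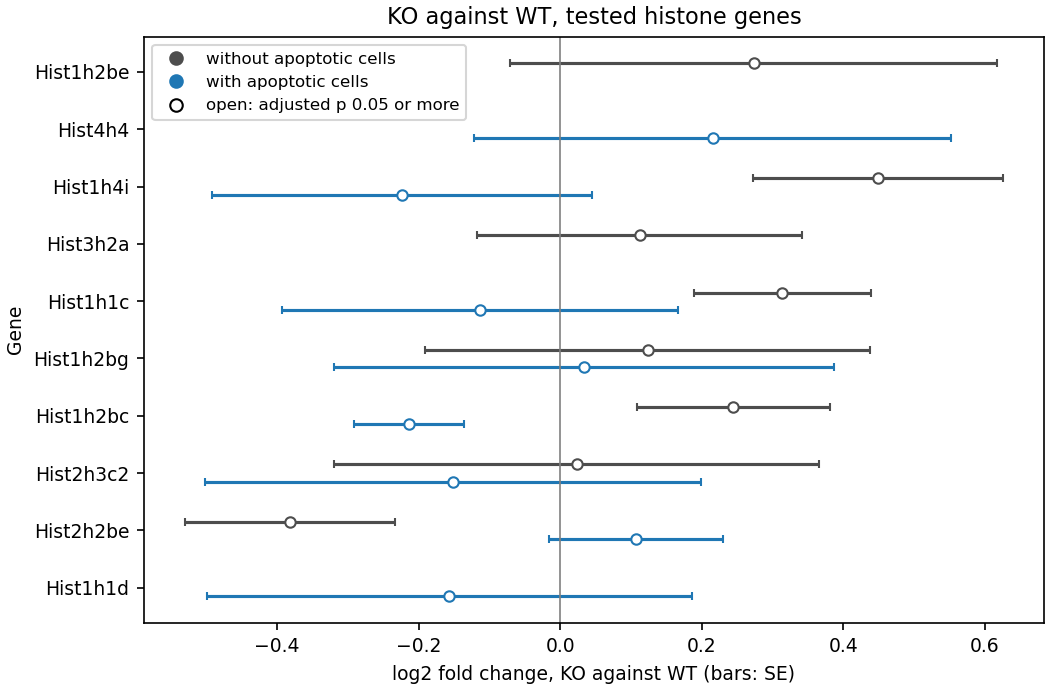
log2 fold change of KO against WT with its SE for each tested member, without AC (grey) and with AC (blue); open points are members that were not called. All points are open, and they lie between -0.38 and 0.45.

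With AC, 8 of the 11 members tested in the joint fit fell in both genotypes. In WT, 8 fell and 3 rose, where 85% of 16907 genes were called (48.3% of genes rose, 36.7% fell). In KO, 8 fell and 2 rose, where 86.3% were called (49.6% rose, 36.7% fell). The libraries with and without AC did not overlap for 9 of 11 members in WT and 10 of 11 in KO, as for 86.7% of all genes in each genotype. The share of members called was near that of all genes. The filter bears on these counts: Hist1h1d, Hist1h2bm and Hist4h4 were tested only in the table with AC or the joint fit, and Hist1h2be and Hist3h2a were not tested in the table with AC, so each of these 5 entered through the condition where it was higher and its direction is not independent of the filter. The other 6, Hist1h1c, Hist1h2bc, Hist1h2bg, Hist1h4i, Hist2h2be and Hist2h3c2, passed the filter in each table and fell in both genotypes. The median log2 change over the tested members was -1.53 in WT and -1.09 in KO, against 0.25 and 0.32 over all genes; scaling by total counts alone moved the medians over all genes to 0.66 and 0.76.

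Among the linker histones, Hist1h1c had 124 ± 7.89 CPM in WT and 153 ± 18.8 in KO without AC and 35.4 ± 7.01 and 33.2 ± 9.67 with AC. All 6 libraries with AC lay below all 6 without. The log2 change was -1.80 ± 0.17 in WT and -2.21 ± 0.18 in KO (SE, edgeR, adjusted p = 1.00e-07 and 8.93e-09). Hist1h1d, another H1 gene, went the other way on few counts: 3, 10 and 3 in WT, 4, 5 and 6 in KO, 11, 18 and 11 in WT + AC and 9, 14 and 12 in KO + AC. It passed the filter through the libraries with AC, so its test is not given as support. Its log2 change was 1.02 ± 0.43 in WT (edgeR adjusted p = 0.0303) and 0.89 ± 0.45 in KO (adjusted p = 0.0677). The call in WT was lost with DESeq2 (adjusted p = 0.0847), without the filter (0.0522), with length and GC offsets (0.120) and without WT 1 (0.141), WT 3 (0.144) or WT + AC 2 (0.156). In KO it was called with DESeq2's size factors (0.0452), with scaling on coding genes (0.0355) and with total counts alone (0.00832). Hist1h1e, the third of the H1 genes by count, was not tested and had 1, 2 and 2 counts in WT, 3, 5 and 1 in KO, 12, 5 and 7 in WT + AC and 3, 7 and 7 in KO + AC.

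For H2B, the partner of H2A in the nucleosome, Hist1h2bc was at 124 ± 14.9 CPM in WT and 147 ± 25.8 in KO and at 17.5 ± 2.07 and 15.4 ± 0.603 with AC. This was the largest fall among the members with a level above 10 CPM, with log2 changes of -2.82 ± 0.12 in WT and -3.26 ± 0.12 in KO (edgeR, adjusted p = 5.31e-18 and 3.05e-19). Hist2h2be was at 14.8 ± 0.876 and 11.3 ± 1.26 CPM without and at 5.11 ± 0.244 and 5.60 ± 0.386 with AC. It fell by 1.53 on the log2 scale in WT and by 1.01 in KO (edgeR, adjusted p = 5.57e-12 and 2.79e-08). Hist1h2be fell by 1.54 and 1.75 (edgeR, adjusted p = 0.00113 and 0.000215) from 13 to 25 counts per library without AC to 4 to 10 with AC. It passed the filter through the libraries without AC, so that test is not given as support. Its model shares 496 bases with that of Hist1h1e. Hist1h2bg, with 13 to 20 counts per library without and 9 to 14 with AC, fell by 0.78 and 0.84 (edgeR, adjusted p = 0.0216 and 0.0129). Those calls were lost with DESeq2 (adjusted p = 0.157 and 0.107) and with scaling by total counts alone (0.268 and 0.227). The call in WT was also lost with scaling on coding genes (0.0547) and without WT 2 (0.123) or WT + AC 2 (0.0682). That in KO was lost without KO + AC 3 (0.0573).

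Hist1h2bm, also H2B, had 0, 1 and 1 counts in WT, 0, 0 and 2 in KO, 8, 14 and 5 in WT + AC and 3, 10 and 14 in KO + AC. Every library with AC was above every library without. With 2 counts in each group without AC, the ratio was 11.1 in WT (95% exact binomial interval 2.78 to 96.1) and 10.8 in KO (2.72 to 93.8), an interval that covers counting error only. Since it passed the filter only through the libraries with AC, the test of its rise is not given as support. With length and GC offsets the log2 change turned to -0.36 in WT and was 0.07 in KO.

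For H2A, the only member tested was Hist3h2a, with 47, 49 and 51 counts in WT, 64, 46 and 38 in KO, 7, 8 and 8 in WT + AC and 5, 3 and 4 in KO + AC. The change was -2.94 ± 0.29 on the log2 scale in WT and -3.91 ± 0.33 in KO (edgeR, adjusted p = 2.84e-10 and 1.01e-11). Hist3h2a passed the filter through the libraries without AC, so this test is not given as support. All 2146 bases of its model lie inside Trim17 on the same strand, and how the authors counted reads in shared bases is not given in the sources used here, so its counts are uncertain. The next H2A genes, Hist1h2ae and Hist1h2ac, had at most 13 and 7 counts in any library and were not tested. Summed over the 20 H2A genes the level was 3.88 ± 0.317 CPM in WT, 4.38 ± 1.36 in KO, 0.933 ± 0.134 in WT + AC and 0.589 ± 0.0280 in KO + AC.

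For H3 and H4, the core pair at the centre of the nucleosome, levels were low. Hist2h3c2 had 24, 14 and 27 counts in WT, 25, 9 and 28 in KO, 9, 19 and 13 in WT + AC and 15, 7 and 14 in KO + AC. The groups overlapped, and the log2 change was -0.94 ± 0.36 in WT and -1.09 ± 0.38 in KO (edgeR, adjusted p = 0.0181 and 0.00879). DESeq2 did not call it (0.114 and 0.0615), nor did scaling by total counts alone, where the log2 change was -0.54 and -0.65 (adjusted p = 0.180 and 0.115). The call in WT was lost without WT 1 (0.0624), WT 3 (0.0900) or WT + AC 1 (0.0813), and that in KO without KO 1 (0.0530), KO 3 (0.0615) or KO + AC 2 (0.0532). In addition, 61.6% of the 100-base windows of its model occur in other annotated transcripts, so its counts are uncertain. Hist1h3c and Hist1h3d, the next H3 genes, had at most 14 and 7 counts in any library. Hist1h4i fell by 2.41 in WT and 3.05 in KO on the log2 scale (edgeR, adjusted p = 3.81e-11 and 2.10e-13), from 83 to 156 counts per library without AC to 13 to 29 with AC.

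Hist4h4 had 0, 0 and 3 counts in WT, 2, 3 and 1 in KO, 8, 13 and 16 in WT + AC and 12, 12 and 18 in KO + AC, with no overlap between conditions. The ratio was 10.1 in WT (95% exact binomial interval 3.20 to 51.3), with 3 counts without AC, and 5.60 in KO (2.37 to 16.1). It too passed the filter only through the libraries with AC, and its test is not given as support. Hist1h4h, an H4 gene whose model ends 46 bases after the stem-loop, was not tested and had 6 to 12 counts per library without and 3 to 9 with AC.

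**Figure D5:**
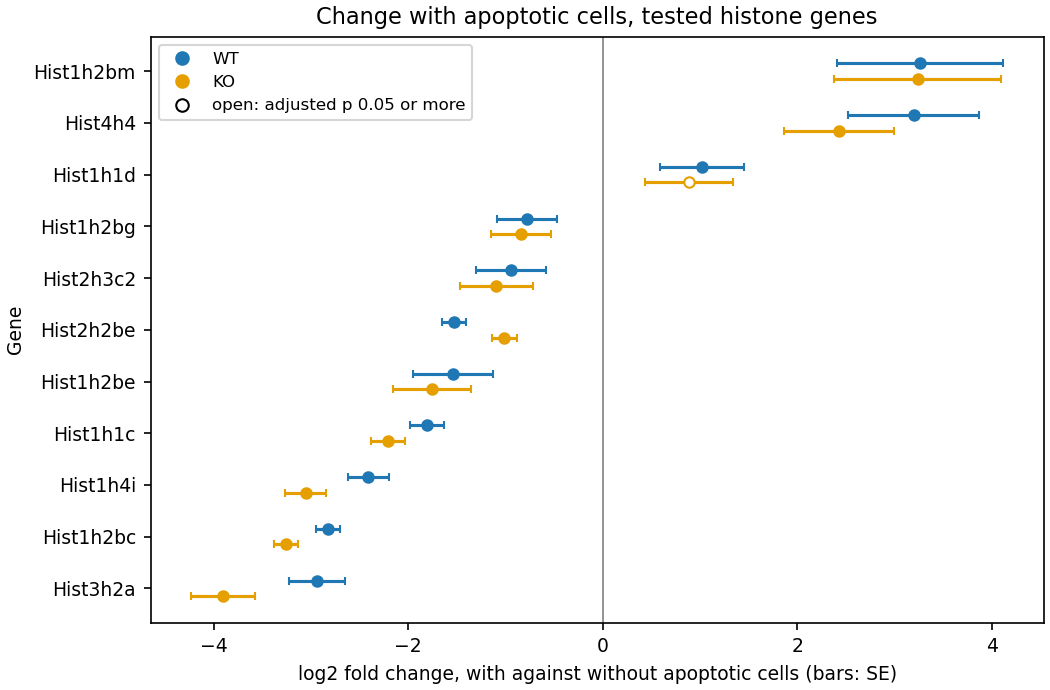
log2 fold change with against without AC, with its SE, for the 11 members tested in the joint fit, in WT (blue) and KO (orange); the open point was not called. In both genotypes 8 genes lie below 0, from -0.78 to -3.91, and the values of Hist1h2bm and Hist4h4 rest on 2 to 6 counts per group without AC.

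With length and GC offsets the falls were larger for several members, at -5.39 in WT and -5.73 in KO for Hist1h4i on the log2 scale. They were -4.23 and -4.61 for Hist1h2bc, -4.17 and -3.88 for Hist1h2bg and -3.01 and -2.76 for Hist2h3c2. In each genotype 1 member rose and 8 fell, where 14196 (WT) and 14308 (KO) of 16907 genes were called. The offsets also moved the median log2 change over all genes, from 0.25 to -0.16 in WT and from 0.32 to -0.10 in KO. Summed over all members but the 5 with the most counts, the level was 9.43 ± 1.28 CPM in WT, 11.0 ± 1.72 in KO, 8.14 ± 0.508 in WT + AC and 7.30 ± 0.671 in KO + AC. The libraries with and without AC overlapped in WT and did not in KO, where those with AC were lower. T cell markers, the lineage of the added human cells, summed to 54.1 to 73.2 CPM without and 74.9 to 90.1 CPM with AC over 12 genes. Of the 9 tested, 6 rose and 2 fell in each genotype, where 48.3% (WT) and 49.6% (KO) of all genes rose and 36.7% fell. Only 3 markers passed the filter in the fit without AC and 9 with AC, so the direction of some is not independent of the filter. Cd3d was at 0 in WT, and no marker was at 0 in the groups with AC. Their part in the members' values was not tested.

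The change with AC was not shown to differ between the genotypes for any member. The interaction was called for 0 of 11 members, where 12.7% of 16907 genes were called, 7.53% positive and 5.15% negative; 2 had an unadjusted p under 0.05, and DESeq2 called 0. The closest were Hist2h2be, whose fall was smaller in KO by 0.52 ± 0.18 (SE, log2, edgeR adjusted p = 0.0541), and Hist1h2bc, whose fall was larger in KO (-0.43 ± 0.17, edgeR adjusted p = 0.0840). Both were called without KO 2 (0.57, edgeR adjusted p = 0.0445, and -0.56, 0.0341), where 1428 of 17504 genes were called. Both were also called without KO 3 (0.49, 0.0422, and -0.49, 0.0370), where 4338 of 17516 genes were. Without KO + AC 1, Hist1h1c was called (-0.65, edgeR adjusted p = 0.0271), where 1367 of 17410 genes were. Without KO 1 and KO 2 together only KO 3 is left, so those calls are not given.

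The genes around the histone supply were read from lists of related genes. Of the listed histone variants, whose genes give polyadenylated mRNAs, 9 of 12 fell and 2 rose with AC in WT, where 36.7% of all genes fell and 48.3% rose. In KO 9 fell and 2 rose, where 36.7% and 49.6% of all genes did, with median log2 changes of -0.92 and -1.04. Cenpa, the centromeric H3, fell by 2.02 and 2.79 on the log2 scale, and H1f0, the linker histone of differentiated cells, fell by 1.68 and 1.81. H2afz, a common H2A variant, fell by 1.24 and 1.43 (edgeR, adjusted p at most 1.19e-13 for H1f0 and 4.11e-12 for H2afz). H1fx rose from 0.123 ± 0.0629 CPM in WT and 0.412 ± 0.138 in KO to 10.3 ± 0.978 and 9.97 ± 0.475 with AC. Without AC, 4 of 11 variants were higher in KO than WT and 0 lower (7.94% and 8.24% of all genes), among them H2afv (log2 0.56 ± 0.15, edgeR adjusted p = 0.0191) and H2afx, which marks DNA breaks when phosphorylated (0.41 ± 0.14, adjusted p = 0.0480). With AC, 2 of 12 were higher (H3f3a and H3f3b) and 2 lower (Cenpa and H2afv) in KO, against 6.58% and 4.75% of all genes.

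The factors that make and degrade stem-loop mRNAs were called in either direction at shares near or below those of all genes. In WT with AC 7 of 19 rose and 7 fell (48.3% and 36.7% of all genes), and in KO 10 rose and 6 fell (49.6% and 36.7%). Slbp, which binds the stem-loop, fell by 0.76 in WT and 0.41 in KO on the log2 scale, and Lsm10, a U7 subunit, fell by 1.67 and 1.79. Upf1, a helicase that takes part in their decay, rose by 1.44 and 1.73 (edgeR, adjusted p = 3.92e-14 for Upf1 in WT and 1.01e-07 for Slbp in WT). Without AC, 1 of 18 was called between KO and WT (16.2% of all genes), Casp8ap2 (FLASH, part of the cleavage complex), which was lower in KO (-0.66 ± 0.17, edgeR adjusted p = 0.0157), and with AC, 1 of 19 (11.3% of all genes), Eri1, a nuclease that trims the hairpin end, was higher (0.17 ± 0.05, adjusted p = 0.0121).

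Of 36 S phase and DNA replication genes, 5 had a higher and 1 a lower level in KO than in WT without AC, and 7.94% and 8.24% of all genes did, so the share called was near the background. With AC, 0 of 35 were higher and 11 lower, against 6.58% and 4.75% of all genes. The largest differences without AC were those of Tk1 (thymidine kinase, log2 0.68 ± 0.14, edgeR adjusted p = 0.00557) and Gins2 (replicative helicase, 0.60 ± 0.16, adjusted p = 0.0188). With AC the lower genes included Mcm5, another helicase subunit (-0.28 ± 0.05, edgeR adjusted p = 6.84e-05), and Rrm1, of ribonucleotide reductase (-0.22 ± 0.05, adjusted p = 0.000450). With AC 17 of 35 rose and 8 fell in WT (48.3% and 36.7% of all genes) and 15 rose and 12 fell in KO (49.6% and 36.7%), with medians of 0.28 and 0.01. Of 19 chaperones and enzymes that handle new histones, 10 rose and 4 fell with AC in WT and 8 rose and 4 fell in KO, beside the same shares of all genes. Between KO and WT, 2 were higher and 1 lower without AC (7.94% and 8.24% of all genes), and 0 higher and 3 lower with AC (6.58% and 4.75%). Beside the KO differences, 7 of 11 tested fibroblast and stromal markers were higher in KO without AC (7.94% of all genes), where the 12 markers summed to 675 to 832 CPM in WT and 1020 to 1321 in KO, and 6 of 10 were lower in KO with AC (4.75% of all genes), where they summed to 394 to 433 CPM in WT and 272 to 294 in KO. None of the 12 was at 0 in any group, and their part in the histone values was not tested.

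Other RNAs that lack a poly(A) tail were also measured. Of 19 listed, none passed the filter without AC, and 5 passed that of the joint fit through the libraries with AC, so their direction is not independent of the filter and their counts are given as a description. Rn7s2, a 7S RNA gene, had 0, 0 and 0 counts in WT and 411, 463 and 392 in WT + AC, at least 115-fold higher when 3 counts per library stand for 0. In KO it had 0, 2 and 0 counts and 375, 349 and 421 with AC. Rn7s1 had 0 counts in all 6 libraries without AC and 254, 311 and 285 in WT + AC and 249, 288 and 313 in KO + AC, at least 77.4-fold higher in WT and 75.4-fold in KO. Rny3, a Y RNA gene, was at 0 in the libraries without AC and had 15 to 32 counts with AC. Rn7sk, the 7SK RNA, had 3 to 10 counts without and 8 to 16 with AC and a ratio of 2.15 in WT (95% exact binomial interval 1.10 to 4.43). These genes have near-identical copies in the genome, so their counts are uncertain.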

How the data were processed

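Values were raw read counts per gene symbol, deposited by the authors in 2 tables of 6 libraries with no normalisation. Per the submitters' processing notes, fastp, HISAT2 2.0.5, DESeq2 1.20.0 and mm10 were used; which program counted the reads, on which annotation and with what strandedness is not given in the sources used here. Newer symbols in the table with apoptotic cells were matched 1 to 1 by RefSeq synonyms (273 symbols). Counts as deposited were fitted in R 4.3.3 with edgeR 4.0.16 (filterByExpr by group, TMM, robust quasi-likelihood test, two-sided; Benjamini-Hochberg over all genes tested, called under 0.05). KO was compared with WT within each table, and the other contrasts came from 1 fit of 12 libraries. CPM are per 1000000 scaled counts. 3′ ends came from GENCODE vM21 and promoters from RefSeq GRCm38.p6. The fits were tested on simulated data; alternatives were DESeq2 1.42.0, its size factors, other filters, TMM on coding genes, length and GC offsets (mgcv 1.9.3), other sets of libraries, a replicate block and each library left out. Intervals and floors cover counting error only: no molecular identifiers are recorded, and reads may share a molecule. The members and gene lists were chosen with earlier results of these data known. Tested members may be named; values per library are given for the 3 members of each family with the highest mean CPM and the 4 with the smallest p in a comparison, and up to 4 genes per list with the smallest p are named. Other genes are named where a sentence says why.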

Additional observations from a re-analysis of the deposited data

Results flagged for a closer look

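No member differed between the conditions in its KO effect by the interaction test. Among the related genes, the effect of the labelled KO differed between the conditions by that test (edgeR quasi-likelihood, adjusted p under 0.05, log2, KO against WT with AC minus without AC) for Kif13b itself at 0.74 ± 0.13 (SE). The value was positive as well for Casp8ap2 (0.75 ± 0.18), Atrx (0.77 ± 0.21), Cpsf2 (0.46 ± 0.14) and Eri1 (0.43 ± 0.12). It was negative for the S phase genes Tk1 (-1.07 ± 0.17), Gins2 (-0.96 ± 0.22), Mcm5 (-0.67 ± 0.13) and Mcm7 (-0.51 ± 0.13). Negative values also stood for the chaperone genes Chaf1a (-0.80 ± 0.23), Chaf1b (-0.56 ± 0.16) and Hira (-0.71 ± 0.24) and for the histone variants Cenpa (-0.77 ± 0.16), H2afv (-0.75 ± 0.19), H2afx (-0.64 ± 0.16) and H1fx (-1.74 ± 0.57). The 2 conditions stand in separate tables, and library making and condition cannot be told apart.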

How the results depend on the processing

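Without the filter on low counts, 17 members were called in WT and 20 in KO for the effect of AC and 1 for the interaction. Over all genes 19993, 19721 and 2141 of 42536 were called there. With the filter at 1 CPM in 3 libraries 6, 6 and 1 members were called, since fewer members were tested. In that setting 12804, 13013 and 2210 of 14974 genes were called. The joint fit called 2 members between KO and WT without AC, and 4017 of 16907 genes. Leaving out 1 library gave 0 to 3 member calls between KO and WT without AC and 0 to 1 with AC. It gave 9 to 11 for AC in WT, 9 to 10 in KO and 0 to 2 for the interaction. Over all genes, the calls in the same order ran from 312 to 4166, 1192 to 2142, 14248 to 14619, 14548 to 14985 and 1137 to 4338. With the symbols as deposited, an alternative added after the data were seen, 0 members could be tested and 0 were called for the AC effects. The log2 ratio of the members' summed CPM with against without AC was -2.05 in WT and -2.42 in KO, and -1.67 and -1.98 when scaled by raw totals alone; leaving out a library gave -2.16 to -1.98 and -2.54 to -2.34. Between KO and WT it was 0.25 without AC (0.17 to 0.33) and -0.11 with AC (-0.24 to -0.003). The AC change of Hist1h2bm in WT turned to -0.36 with length and GC offsets; the cause was not tested. Replicate numbers did not pair the libraries: same-numbered KO and WT libraries correlated at -0.20, -0.001 and 0.11 without AC and 0.02, -0.07 and -0.08 with AC. With the replicate block 0, 0, 11, 10 and 0 members were called in the 5 comparisons, as without it. Depth limits most members, which had a few counts per library.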
